A study of Homo sapiens with 22 samples.

Results

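The H3K4me3 regions gained after FLI1 knockdown were places where both lists from siFLI1 cells held a peak of trimethylated histone H3 lysine 4 and neither list from control (siNEG) cells did. They numbered 449 of 20727 merged H3K4me3 regions on chromosomes 1 to 22 and X (2.17%), after the 4 H3K4me3 peak lists had been merged wherever intervals shared at least 1 bp. Of the 449, 84 had a siNEG peak within 1 kb and are called flanked, and 365 had none and are called isolated. When the gained call was made with siNEG replicate 1 or 2 dropped it gave 631 or 716 regions, and with siFLI1 replicate 1 or 2 dropped 1540 or 1361. In the same order, 138 or 169 and 811 or 716 of them were flanked. Membership was chosen by presence in these same lists, so widths, fold values and presence of H3K4me3 in them are given as a description, with no test.

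The cells were TC-32, an established Ewing sarcoma line that carries the EWSR1::FLI1 fusion, in which siRNA at 20 nM was either a control (siNEG) or directed at FLI1 (siFLI1), whose sequence the fusion transcript shares. Each arm had 2 libraries for H3K4me3, 2 for H3K27ac, 1 further H3K27ac library called ab4729 here, and 2 for the transcription factor ETS1, so that 14 peak lists were used, and 8 input libraries had no list here. All samples came from this 1 line and no label says whether replicates were separate transfections, so the spread between them may be technical. The depletion of the fusion cannot be checked from peak lists, and library depth was not stated.

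H3K4me3 is deposited at transcription start sites (TSSs) by SET1 and MLL complexes, whose targeting relies in part on unmethylated CpG-rich DNA, and it can mark a CpG island promoter whether or not the gene is strongly transcribed. H3K27ac, an acetylation laid down by p300 and CBP, accompanies active promoters and enhancers. EWSR1::FLI1 is a chimeric ETS factor that turns on genes through GGAA repeats and holds down a second set of genes, many of them of mesenchymal character, and genes of that set are known to recover when the fusion is removed.

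Examples of gained promoters are printed here as the 200 bases upstream of the RefSeq TSS (hg38, 5′ to 3′ on the gene's strand). They were picked for high H3K4me3 fold and do not stand for all gained regions, 149 of which had no TSS within 1 kb of the centre. The first set are the promoters of highest mean H3K4me3 fold that had no H3K27ac peak in any of the 4 replicated lists, among those whose RefSeq TSS lay inside the gained region and whose window overlaps no UTR: IGFBP3 at chr7:45921273-45921472 (minus strand), CD24 at chr6:106974040-106974239 (minus strand), THBS1 at chr15:39580879-39581078 (plus strand) and COLEC12, a scavenger receptor, at chr18:500702-500901 (minus strand). Capitals mark each CpG dinucleotide.
IGFBP3: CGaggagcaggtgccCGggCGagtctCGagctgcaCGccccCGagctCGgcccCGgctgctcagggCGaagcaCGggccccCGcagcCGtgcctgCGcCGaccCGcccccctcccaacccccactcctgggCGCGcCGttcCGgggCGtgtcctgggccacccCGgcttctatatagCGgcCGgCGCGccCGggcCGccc
CD24: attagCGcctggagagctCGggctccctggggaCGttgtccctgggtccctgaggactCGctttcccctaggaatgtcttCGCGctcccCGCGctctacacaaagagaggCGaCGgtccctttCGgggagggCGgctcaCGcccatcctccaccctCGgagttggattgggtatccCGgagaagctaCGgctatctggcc
THBS1: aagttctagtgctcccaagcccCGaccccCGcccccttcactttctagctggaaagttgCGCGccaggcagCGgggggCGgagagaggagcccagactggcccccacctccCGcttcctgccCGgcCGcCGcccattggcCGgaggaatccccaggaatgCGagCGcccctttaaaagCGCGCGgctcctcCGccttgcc
COLEC12: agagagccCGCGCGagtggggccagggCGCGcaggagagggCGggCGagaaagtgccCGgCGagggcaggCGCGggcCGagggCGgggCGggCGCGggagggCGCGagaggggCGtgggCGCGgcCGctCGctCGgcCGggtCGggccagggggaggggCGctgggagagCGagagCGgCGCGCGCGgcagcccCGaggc

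These windows held 27, 16, 17 and 34 CpGs, in that order. The second set was chosen in the same way among promoters with an H3K27ac peak in both siFLI1 lists: ABL2 at chr1:179143077-179143276 (minus strand), ACTA2 at chr10:88952774-88952973 (minus strand), PTGES at chr9:129753043-129753242 (minus strand) and MRTFA at chr22:40533828-40534027 (minus strand). Capitals again mark CpGs.
ABL2: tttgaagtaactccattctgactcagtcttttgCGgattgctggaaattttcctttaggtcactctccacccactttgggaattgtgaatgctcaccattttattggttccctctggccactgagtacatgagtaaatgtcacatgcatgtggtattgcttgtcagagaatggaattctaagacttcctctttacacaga
ACTA2: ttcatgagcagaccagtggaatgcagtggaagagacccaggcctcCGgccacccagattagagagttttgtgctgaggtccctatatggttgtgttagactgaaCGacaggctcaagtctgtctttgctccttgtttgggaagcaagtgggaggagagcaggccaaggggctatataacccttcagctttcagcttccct
PTGES: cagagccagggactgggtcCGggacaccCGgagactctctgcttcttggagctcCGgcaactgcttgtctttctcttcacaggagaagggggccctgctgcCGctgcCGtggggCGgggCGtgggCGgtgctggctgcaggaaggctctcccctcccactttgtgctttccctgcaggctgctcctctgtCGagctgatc
MRTFA: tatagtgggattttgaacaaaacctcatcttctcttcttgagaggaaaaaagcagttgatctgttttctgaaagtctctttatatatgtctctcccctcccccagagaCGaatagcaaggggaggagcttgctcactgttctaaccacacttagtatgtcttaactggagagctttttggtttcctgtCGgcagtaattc

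The second set held 1, 2, 9 and 2 CpGs. These are examples in upstream windows. At the H3K4me3 summits, 2 of the first set were less CpG-rich, with a CpG ratio (observed over expected) of 0.46 at THBS1 and 0.53 at CD24, close to 0.41 at PTGES of the second set.

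Most gained regions were narrow and of low enrichment. Their median width was 651 bp (range 293 to 4040), against 3582 bp for the 12984 regions held by all 4 lists and 640.5 bp for the 586 regions lost after knockdown (2.83% of merged regions). The fold enrichment, a ratio to local background that the authors deposited for each peak, had a median of 5.09 in siFLI1 replicate 1 and 5.24 in replicate 2. These medians stood at the 24.0 and 24.5 percentile of their lists. The medians of the whole lists were 24.9 and 24.8 in siFLI1 and 20.1 and 17.8 in siNEG. Fold values are not compared between lists, and the part of list-wide enrichment in the gained count was not tested. Absence from a siNEG list means that no peak passed the authors' limit there, which lay near a −log10 q of 2.02 and 2.07, not that the mark was absent.

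The edge of the rule ran through regions of like strength. A further 369 regions were in both siFLI1 lists and in exactly 1 siNEG list, 150 with replicate 1 and 219 with replicate 2. Their siNEG peaks were weak, with a median fold of 4.48 and 4.37, and their mean siFLI1 fold had a median of 5.57, against 5.17 for the gained regions. At the 1 kb limit, the nearest flanked regions lay 892, 990 and 994 bp from a siNEG peak (CLU, CRYAB and a region nearest GLIS1), and the nearest isolated ones 1031, 1034 and 1090 bp (nearest ENSG00000225761, ATL3 and ELL2).

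**Figure D1:**
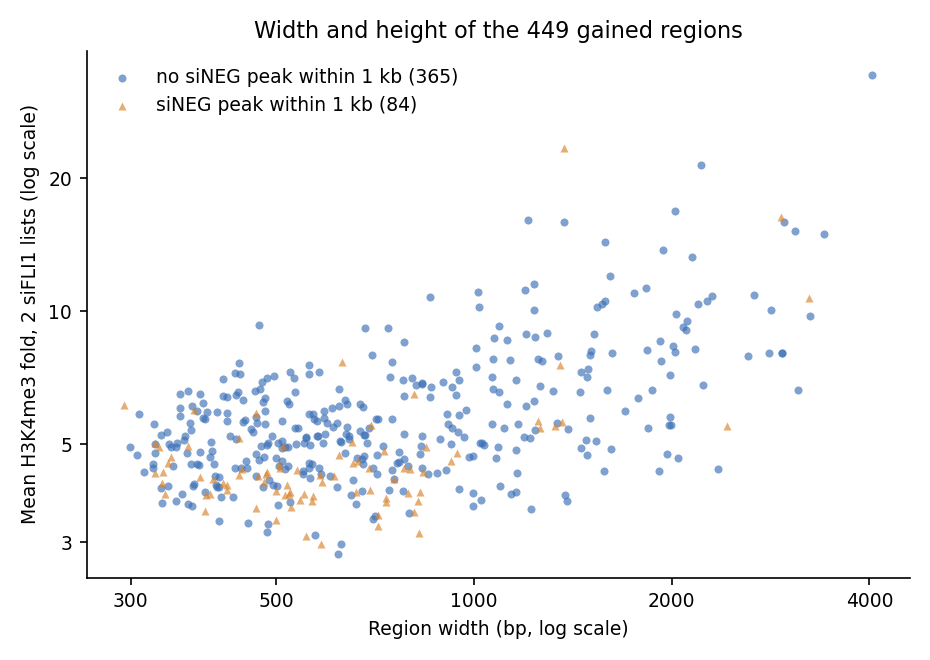
Width (bp, log scale) and mean H3K4me3 fold over both siFLI1 lists (log scale) of the 449 gained regions, 1 point each, circles for the 365 isolated and triangles for the 84 flanked regions. Most points lie below 1000 bp and a fold of 10, and 31 regions had a mean fold of 10 or more.

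The strongest gained region lay over the promoter of IGFBP3, which encodes a secreted protein that binds insulin-like growth factors and is a known target held down by the fusion. It spanned chromosome 7, 45917813 to 45921852, was also the widest, and had a fold of 31.5 in siFLI1 replicate 1 and 37.2 in replicate 2. The nearest siNEG H3K4me3 peak was 148366 bp away. No H3K27ac or ETS1 list of either arm held a peak in it.

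Next in mean fold was HIC1, a transcriptional repressor (chromosome 17, 2054968 to 2056335), with 24.6 and 22.3. It was flanked, with a siNEG peak 680 bp away, and it covered TSSs of a gene that had another TSS in a siNEG peak. ABL2, a tyrosine kinase that acts on the actin cytoskeleton (chromosome 1, 179140977 to 179143189), had 18.1 and 24.8. Both lacked H3K4me3 peaks in siNEG by the rule, but they differed in acetylation, since HIC1 had none and ABL2 had an H3K27ac fold of 2.77 in siNEG replicate 1, none in siNEG replicate 2, and 16.5 and 23.5 in the siFLI1 lists. Here and below, H3K27ac folds are given list by list and are not compared between arms.

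L1CAM, a neural cell adhesion molecule (chromosome X, 153884232 to 153886250), had H3K4me3 folds of 17 and 16.8 and no H3K27ac peak. CRYAB, which encodes the small heat shock protein alpha-B crystallin (chromosome 11, 111909345 to 111912281), had 18.0 and 14.8. Its H3K27ac peaks were in all 4 lists, at 9.75 and 8.62 in siNEG and 15.4 and 8.65 in siFLI1. It was flanked, with a siNEG peak 990 bp away, and the gene also had a region within 1 kb of a TSS that siNEG replicate 1 shared with both siFLI1 lists. In the gained region, acetylation was called in both arms. IRF9, the DNA-binding subunit of the interferon-activated ISGF3 complex (chromosome 14, 24161168 to 24162373), had 14.6 and 17.5, also with H3K27ac in all 4 lists.

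The rest of the 12 strongest lay at genes of several kinds. COL5A3, a collagen V chain (chromosome 19, 10009511 to 10010882), had 14.4 and 17.5. CD24, a surface glycoprotein (chromosome 6, 106972460 to 106975421), had 16.9 and 14.9. SEMA3C, a secreted semaphorin (chromosome 7, 80917930 to 80919510), had 12.7 and 16.0. CD24 and SEMA3C lacked H3K27ac in every list, and COL5A3 had it in siFLI1 replicate 2 alone, at 11.2. THBS1, the matrix glycoprotein thrombospondin 1 (chromosome 15, 39580455 to 39583868), had 14.2 and 15.7, and PRICKLE1, a planar cell polarity protein (chromosome 12, 42588184 to 42590119), had 12.6 and 14.9, neither with H3K27ac.

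ACTA2, smooth muscle alpha actin (chromosome 10, 88949802 to 88952881), had H3K4me3 folds of 14.5 and 16.0. Its H3K27ac folds were 24.4 and 8.34 in siNEG and 14 and 14.7 in siFLI1. As at CRYAB, acetylation was called in both arms.

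**Figure D2:**
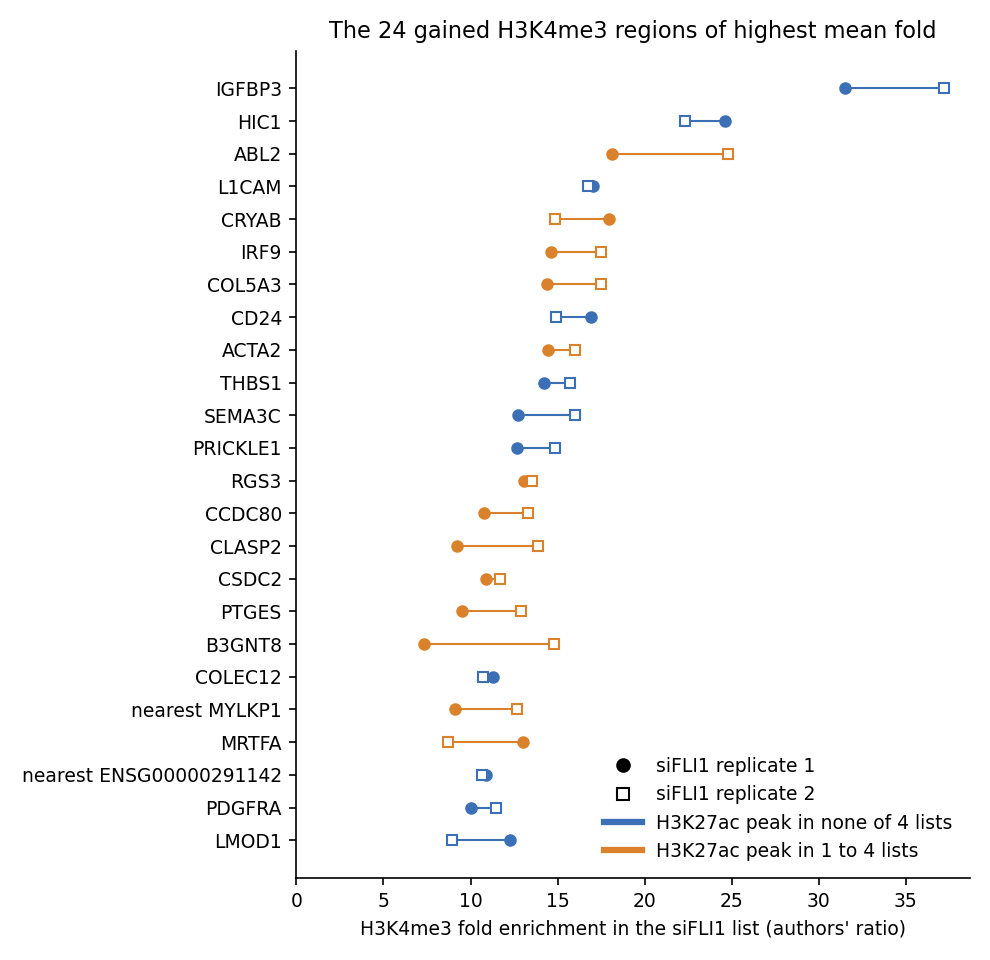
H3K4me3 fold enrichment (the authors' ratio) of the 24 gained regions of highest mean fold, circles for siFLI1 replicate 1 and squares for replicate 2, blue where none of the 4 replicated H3K27ac lists held a peak and orange where 1 to 4 did. IGFBP3 stands alone at 31.5 and 37.2, and both colours occur along the whole order.

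Some weaker members at genes that act on actin or in smooth muscle were picked after their values were seen and stand for no list. MRTFA, a coactivator of serum response factor, had 13.0 and 8.69. LMOD1, an actin nucleator of smooth muscle, had 12.2 and 8.91, and TAGLN, the actin-binding protein transgelin, had 5.45 and 5.72. MYOCD, the muscle coactivator myocardin, was near the lower end at 3.57 in both lists. TAGLN had H3K27ac in both siFLI1 lists (6.14 and 8.27) and in neither siNEG list, MRTFA had it in siNEG replicate 1 and both siFLI1 lists, and LMOD1 and MYOCD had none. Of other contractile and actin-binding genes, VCL, ACTN1, TPM1, TPM2, CNN2 and CALD1 had a region in all 4 H3K4me3 lists and MYL9 had none.

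Some members at genes of secreted ligands or receptors were likewise picked after their values were seen, stand for no list and were not counted against genes of their kind. PDGFRA, the receptor PDGFR-alpha (chromosome 4, 54228994 to 54232225), had 10.0 and 11.4 and was flanked, with a siNEG peak 784 bp away. PDGFA, its ligand, had 7.73 and 8.46 and was isolated. Neither had an H3K27ac peak in any of the 4 replicated lists. Promoters of the secreted ligands BMP4 (5.44 and 5.00), WNT4 (5.32 and 4.83), AREG (4.10 and 4.44) and RSPO3 (4.31 and 5.58) were weaker, and they too had no H3K27ac peak.

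Gene lists drawn up with earlier results of these data in view placed these members against their pathways, so the counts describe and do not support a direction. Over all protein-coding genes, 13217 had an H3K4me3 region within 1 kb of a TSS, and 289 of them (2.19%) had a gained one and 181 (1.37%) a lost one. Over all lists together, 20 of 233 marked genes had a gained region and 1 (AXL) a lost one. For actin cytoskeleton and adhesion the count was 5 of 29 (L1CAM, CD44, TAGLN, ACTA2 and ABL2) and for small heat shock proteins 2 of 6 (CRYAB and its neighbour HSPB2, at the same gained region). CD44, the hyaluronan receptor, had folds of 10.7 and 5.63. THBS1 and TIMP3, a metalloproteinase inhibitor with folds of 6.36 and 7.25, were gained members of the extracellular matrix list.

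In the list of YAP and TEAD factors and their targets 2 of 15 were gained, ANKRD1 (9.07 and 7.02) and AMOTL1 (11.3 and 9.17). In the same list 1 gene, AXL, had a lost region, and AXL and AMOTL1 also had a region in all 4 lists. The interferon and MHC list gave 2 of 18 (IRF9 and IFIT3), and LTBP1, which binds latent TGF-beta, was a gained member of the TGF-beta list. DKK3, a secreted relative of the Wnt inhibitors (5.09 and 4.99), EGR3, an immediate early factor (7.94 and 6.25), and ELK3, an ETS family member (4.74 and 2.68), were the single members of their lists. Of 12 marked genes known to be lowered by the fusion, only IGFBP3 was gained and 11 had a region in all 4 lists. Of 15 genes that the fusion is known to activate, and of 12 marked Notch genes, none was gained. Most genes of these lists therefore carried H3K4me3 in every list already.

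H3K4me3 was also looked up at markers of cell types. This describes promoters and cannot settle the identity of the cells, since 13217 of 19970 protein-coding genes had a region. All 6 Ewing sarcoma markers (CD99, NKX2-2, FLI1, EWSR1, BCL11B and GLG1) had a region in all 4 H3K4me3 lists. None of 6 blood markers had any region, and 3 of 6 epithelial and 1 of 5 endothelial markers did, none of them gained. The epithelial markers KRT8 and KRT18 and the endothelial marker KDR had a region in all 4 lists too.

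TSSs lay within 1 kb of the centre of 300 gained regions, or 66.8% (95% exact interval 62.2 to 71.2%, which covers counting error over regions only). A further 100 lay in gene bodies and 49 were intergenic. The promoter share was 75.1% in regions of all 4 lists (67.2% in those under 1 kb wide), 59.0% over all merged regions and 28.2% in lost regions. Isolated regions were at promoters in 72.3% of cases and flanked ones in 42.9%. How the gained share stood to that of all merged regions depended on the definition. A TSS lay inside 53.2% of gained and 62.9% of merged regions, and inside 92.0% of regions of all 4 lists (52.0% of those under 1 kb wide). The share of gained regions by centre was 45.0% or 45.7% when the gained call dropped siFLI1 replicate 1 or 2. No test was made, since regions are not replicates.

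The strongest regions with no TSS within 1 kb of the centre were ACTA2 and THBS1, which hold a TSS further from the centre, and an intergenic region nearest the pseudogene MYLKP1 (chromosome 3, 75326893 to 75329557) with folds of 9.11 and 12.7. Members were spread over every chromosome of the rule, from 3 on chromosome 18 to 45 on chromosome 1, and 23 had another member within 10 kb.

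Gained regions covered a TSS of 214 protein-coding genes, in 206 regions, and these fell into 2 kinds. For 148 genes no TSS of the gene lay in a siNEG H3K4me3 peak, as at IGFBP3, L1CAM, CD24 and SEMA3C. For 66 genes another TSS of the same gene did, so the gained region lay at an additional annotated TSS of a gene already marked. Whether transcription starts there was not measured. In 48 of these 66 the gained TSS was downstream of the marked one and in 18 upstream, at a median distance of 42.6 kb (range 0.606 to 613 kb). The same counts were not made over other H3K4me3 regions, so they are not read as a trait of the gained ones. ABL2 was 86.2 kb from its marked TSS, MRTFA 103 kb, ACTA2 38.6 kb and CLASP2, a microtubule plus-end protein, 58.4 kb, all downstream, while AMOTL1 was 61.9 kb and PRICKLE1 105 kb upstream. Gained TSSs of 45 lncRNA genes included CARMN, the host transcript of miR-143 and miR-145, with folds of 4.55 and 4.15.

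Both kinds differed in acetylation. Among 145 regions with a TSS of a gene not marked in siNEG, 85.5% had no H3K27ac peak in any of the 4 replicated lists, against 44.6% of 65 regions at additional TSSs. That share was 37.9% over all merged regions and 31.3% over those with a TSS within 1 kb of the centre. By list, H3K27ac covered 6.90% and 5.52% of the first kind in siNEG and 11% and 11.7% in siFLI1. It covered 40.0% and 35.4% of the second kind in siNEG and 47.7% and 49.2% in siFLI1. These are shares of regions within the same lists, and 4 regions counted under both kinds because they cover TSSs of more than 1 gene.

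**Figure D3:**
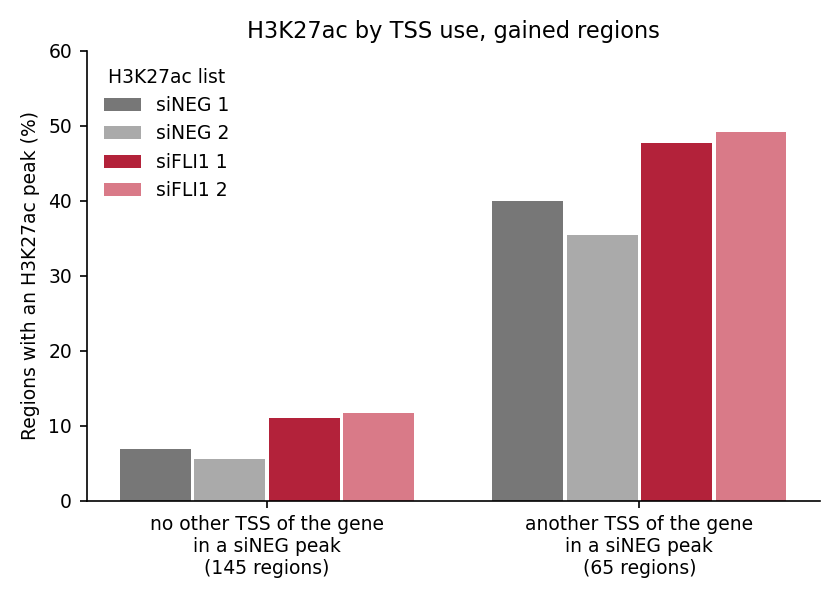
Share (%) of gained regions with an H3K27ac peak in each of the 4 replicated H3K27ac lists, for 145 regions at a TSS of a protein-coding gene without another TSS in a siNEG H3K4me3 peak and for 65 regions at an additional TSS. The shares at additional TSSs, from 35.4 to 49.2%, lie above the others, from 5.52 to 11.7%, in every list.

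H3K27ac was not used to choose the members, and it covered a minority of them. Peaks of the siNEG lists overlapped 101 and 87 of the 449 regions and peaks of the siFLI1 lists 115 and 114. The mean share was 20.9 ± 2.20% in siNEG (SD, n = 2) and 25.5 ± 0.157% in siFLI1 (SD, n = 2), a difference of 4.57 percentage points. Neither arm overlapped the other, but the exact permutation test over lists (two-sided) gave p = 0.33, the smallest value that 2 lists against 2 allow. With siNEG replicate 2 left out the difference was 3.01 points. The same difference was 2.87 points over all merged regions (52.1 to 55.0%) and 3.82 points over regions of all 4 lists (70.6 to 74.4%). Values of like size were thus found outside the gained regions as well, and the differences between sets were not tested.

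The antibody label of the ab4729 lists also carries the catalogue number of the other H3K27ac libraries, so which antibody was used is unclear. In these lists, without replicates, 52 gained regions (11.6%, exact interval 8.77 to 14.9%) had a peak in siNEG and 79 (17.6%, 14.2 to 21.4%) in siFLI1. Of these, 33 regions were in the siFLI1 list alone, 6 in the siNEG list alone and 46 in both. Over all merged regions the siFLI1 list alone held 8.40% and the siNEG list alone 2.40%, and the siFLI1 list was the longer, with 51663 peaks against 32738. The 33 regions, at 7.35% of the members, were near that background.

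No H3K27ac peak of any of the 4 replicated lists overlapped 314 gained regions (69.9%), IGFBP3, HIC1, L1CAM, CD24, THBS1, SEMA3C and PRICKLE1 among the 12 strongest. That share was 37.9% over all merged regions. It was 20.1% for regions of all 4 lists, but 61.8% for those of them under 1 kb wide. For lost regions it was 56.1%, and for the 369 regions just outside the rule 72.1%. Width therefore moved with this share, and the part of width was not tested. Another 73 gained regions (16.3%) had H3K27ac in all 4 lists, against 44.9% of all merged regions.

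Regions gained in both marks were few. H3K27ac was in both siFLI1 lists and neither siNEG list at 12 gained regions (2.67%), against 2.15% of all merged regions, and in both siNEG lists and neither siFLI1 list at 2 (0.445%, against 0.950%). These shares are near their background. The count of 12 was 25 when the siNEG replicate 1 H3K27ac list was left out and 18 without that of siNEG replicate 2, and 17 or 20 when the siFLI1 replicate 1 or 2 list was left out. All 12 were isolated. Among them were PTGES, the inducible prostaglandin E synthase (H3K4me3 9.51 and 12.9, H3K27ac 6.11 and 5.18), the antisense transcript SBF2-AS1 (H3K27ac 5.82 and 4.83), MGP, matrix Gla protein (2.94 and 3.67), RIMKLB (7.93 and 5.00), FHL1, a LIM protein of muscle (7.87 and 4.89), and TAGLN. Their median CpG ratio was 0.21, and 1 of the 12 was above 0.6.

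Median CpG content differed between gained regions with and without acetylation, while the classes overlapped. The CpG ratio, the number of CpGs observed over that expected from base composition, was computed in 300 bp around the H3K4me3 summit, where CpG islands are commonly taken to lie above 0.6. Its median was 0.57 over the gained regions, 0.76 in regions of all 4 lists, 0.65 over all merged regions and 0.24 in lost regions. Gained regions with no H3K27ac had a median of 0.68, and those with H3K27ac in 1 to 4 lists 0.34, and 57.6% of the former and 23.7% of the latter lay above 0.6. Within gained promoters the medians were 0.75 (219 regions) and 0.34 (81 regions). In regions of all 4 lists under 1 kb wide they were 0.77 with no H3K27ac and 0.67 with H3K27ac in all 4 lists, a smaller step. The step of 0.345 in the gained regions depended on both siFLI1 H3K4me3 lists, since it was 0.0242 when members were called with replicate 1 dropped and 0.0757 with replicate 2 dropped. By TSS use, the median was 0.78 in gained regions at a gene not marked in siNEG and 0.47 at additional TSSs.

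**Figure D4:**
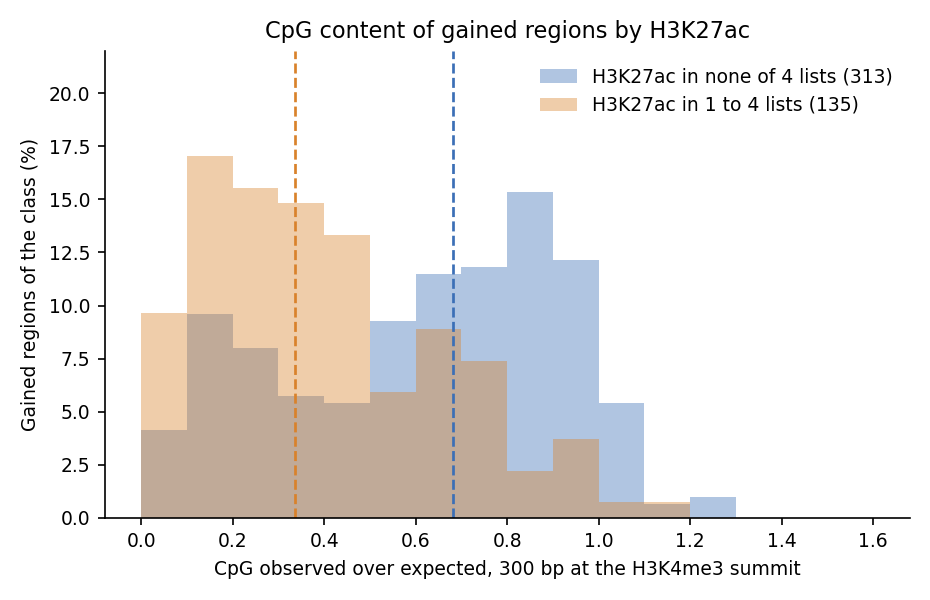
Distribution of the CpG ratio (observed over expected, 300 bp at the H3K4me3 summit) for gained regions with no H3K27ac peak in the 4 replicated lists (blue) and with H3K27ac in 1 to 4 lists (orange), as % of each class in bins of equal width, dashed lines at the medians. The medians were 0.68 and 0.34, and both classes hold regions over most of the range.

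Split at a ratio of 0.6, a cut applied after the values were seen, 213 gained regions lay above and 236 at or below it, the latter including 1 whose window is undetermined in the reference. Above it 85.0% had no H3K27ac, with peaks at 13.6% and 10.8% in the siNEG lists and 12.2% and 12.7% in the siFLI1 lists. At or below it 56.4% had none, with 30.5% and 27.1% in siNEG and 37.7% and 36.9% in siFLI1. The difference between arms was thus 0.235 percentage points in the CpG-rich gained regions, where the arms overlapped, and 8.47 points in the CpG-poor ones, where they did not. In regions of all 4 lists the same differences were 4.04 and 2.97 points. Mean shares there were 69.1% in siNEG and 73.1% in siFLI1 above 0.6, and 76.7% and 79.6% at or below it. Over all merged regions the order of the classes was the other way round from that in gained regions. The mean shares were 63.5% in siNEG and 67.1% in siFLI1 above 0.6, and 37.6% and 39.5% at or below it. The exact permutation test over lists (two-sided) gave p = 1.0 for the CpG-rich and 0.33 for the CpG-poor gained regions, and 0.33 and 0.67 for those of all 4 lists, where 0.33 is the smallest possible. Whether the difference itself differed between the classes was not tested.

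**Figure D5:**
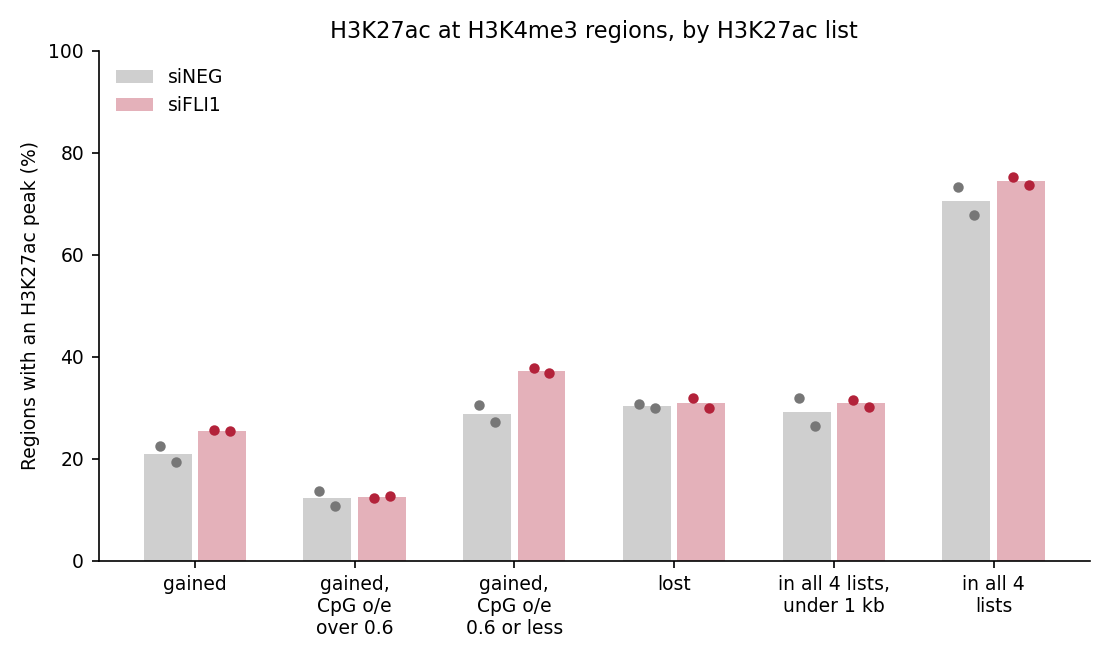
Share (%) of H3K4me3 regions that overlap an H3K27ac peak, as the mean of 2 lists per arm (bars) with each list as a point, siNEG in grey and siFLI1 in red, for gained regions, their CpG-rich and CpG-poor classes, lost regions and regions of all 4 lists. The arms are apart by 8.47 points in the CpG-poor gained regions and by 0.235 points in the CpG-rich ones.

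Width went with the same difference. The 125 gained regions of 1 kb or wider had H3K27ac in 28.4 ± 0.566% of cases in siNEG and 39.6 ± 0.566% in siFLI1 (SD, n = 2), 11.2 points apart. For the 324 narrower ones the difference was 2.01 points and the arms overlapped, at 20.1% and 16.0% in siNEG and 20.4% and 19.8% in siFLI1. In regions of all 4 lists the differences were 3.99 points at 1 kb or wider and 1.70 points under 1 kb. The classes by width and by CpG ratio overlap, and their parts in the difference were not tested.

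RefSeq promoters were compared in fixed windows. A RefSeq TSS of 162 promoters (250 bases before to 50 after the TSS, build GRCh38.p14) fell inside 139 gained regions. Their median CpG ratio was 0.71, against 0.66 for the 34 promoters in lost regions, 0.85 for those in regions of all 4 lists and 0.58 for all 34961 promoters, of which 19075 had no H3K4me3 region (0.26). The step between gained and lost regions at summits, 0.57 against 0.24, was thus not seen at this size in promoter windows. It was 0.80 for the 126 promoters in gained regions with no H3K27ac and 0.28 for the 36 with H3K27ac. The TATA motif TATAAA, searched on both strands, was in 5.56% of the former, 19.4% of the latter and 11.5% of all promoters. The ETS motif CCGGAA was in 9.88% of the 162, in 17.3% of all promoters and in 30.0% of those in regions of all 4 lists. A match is a description of the letters, not a site.

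ETS1 peaks were rare in the gained regions, and in lost regions too. Neither siNEG list had a peak in any of them, where 3 peaks, the limit that a count of 0 allows, would be 0.668%. Each siFLI1 list had a peak in 3 of them (0.668%, exact interval 0.138 to 1.94%). Both ETS1 lists of the siFLI1 arm entered as 1 sample, since their summit heights differed by less than sampling noise (chi-square per degree of freedom 0.42 over 496 regions) and all 1633 peak names of replicate 1 carry the number of replicate 2. With 1 sample in the siFLI1 arm the difference has no informative test. In siFLI1 the share was 0.427% for lost regions, 3.0% and 0.457% for those that siNEG replicate 1 or 2 shared with both siFLI1 lists, 4.32% for regions of all 4 lists under 1 kb wide and 8.84% over all merged regions. Of all merged regions, 5.17% had ETS1 in both siFLI1 lists and neither siNEG list.

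The regions with an ETS1 peak were COL5A3 (ETS1 fold 5.28 and 7.41), a region nearest ELAVL3 (5.94 and 7.34), one nearest ENSG00000291142 (5.63 in replicate 1 alone) and one nearest SBK2 (5.10 in replicate 2 alone). Only COL5A3 was at a promoter. Only 3 gained regions had a GGAA repeat of 4 or more units within 1 kb of their centre (0.668%, against 0.497% of all merged regions) and their nearest genes were LINC01836, CXorf66 and ENSG00000239922.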

How the data were processed

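Peak lists of 14 immunoprecipitated TC-32 libraries were used, one per library and not pooled. Per the submitters' processing notes, the tools named were cutadapt 4.4, BWA 0.7.17, Picard 2.17.11 and MACS2 2.1.1, and the builds named were GRCh38, hg38 and dm6, without their roles. The deposited lists are on hg38 by the check that 61.6 to 69.4% of H3K4me3 peaks had a centre within 1 kb of a TSS, against 10.8 to 11.1% after a shift by 1 Mb. The fold column deposited by the authors is a ratio of each peak over its local background, and the deposited −log10 columns are p-values and q-values per peak. The deposited score column was not used. Fold values describe and rank peaks within a list and are not a measure compared between lists. Whether a spike-in was used, and how inputs entered, is not given in the sources used here, library depth is unknown, and a deeper library can yield more peaks past the same limit.

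Peaks on chromosomes 1 to 22 and X were kept and merged at 1 bp overlap. TSSs came from GENCODE 44 and promoter sequences from RefSeq (GRCh38.p14). Some loci are not reported here, among them members that the rule for named regions or a gene list would give. Of the 34961 promoter windows, 2000 were compared with hg38 and all 2000 were identical. The CpG ratio is CpG count times length over the product of C and G counts. Shares carry exact 95% binomial intervals. Lists were compared by exact two-sided permutation. Merging, gaps and height recovery were tested on simulated data. Python 3.11.15, numpy 2.4.6, scipy 1.17.1, pandas 2.3.3, pysam 0.24.0 and matplotlib 3.10.9 were used.

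The regions named are the 12 of highest mean fold, the 3 widest, the 3 strongest flanked, the 3 strongest without a TSS within 1 kb, up to 5 with an ETS1 peak of a siFLI1 list, the 5 strongest at an additional TSS, the 3 strongest without H3K27ac and those at genes of a list. A few others are marked as named after their values were seen. The members and the gene lists were chosen with earlier results of these data known. Replicate numbers are shared by both arms, but replicate differences of one arm did not go with those of the other (correlation 0.003 over 90572 merged H3K27ac regions and 0.004 over 20727 H3K4me3 regions), so lists were not paired.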

Additional observations from a re-analysis of the deposited data

How the results depend on the processing

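The gained count was 449. Dropping siNEG replicate 1 or 2 gave 631 or 716, and dropping siFLI1 replicate 1 or 2 gave 1540 or 1361, since fewer lists then had to agree. Flanked regions numbered 84 and ranged from 138 to 811 when a list was left out. The promoter share of 66.8% was 79.7% with a TSS within 2.5 kb, 53.2% with a TSS inside the region, 57.0% with protein-coding TSSs only and 72.3% for isolated regions, and ranged from 45.0 to 63.5% with a list left out. The 12 regions gained in H3K27ac ranged from 17 to 25 with an H3K27ac list left out. The ETS1 difference of 0.668 points became 0 when each list was cut to the length of the shortest by −log10 q, and the cause was not tested. For 2 results chosen after seeing the data, the share without H3K27ac of 69.9% was 62.1% when a peak within 1 kb counted, and the CpG difference of 0.345 by H3K27ac fell to 0.0242 and 0.0757 when siFLI1 replicate 1 or 2 was dropped and ranged from 0.0242 to 0.307 with any list left out, so it rests on regions that both siFLI1 lists held. It was from 0.371 to 0.408 for whole regions, isolated regions and promoters only. Of 61 alternative values, 42 kept their direction and stayed within the limits set (a factor of 1.5 for counts, the interval for shares). No difference between arms or by H3K27ac changed sign. The promoter share did change sides of the 59.0% of all merged regions, to 45.0% and 45.7% with siFLI1 replicate 1 or 2 dropped, and it was 53.2% against 62.9% with a TSS inside the region.

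With a replicate block the H3K27ac difference was 4.57 points (3.12 and 6.01 within pairs, exact sign-flip test p = 0.5, the smallest possible), and the numbers do not pair the samples. For ETS1 no paired analysis was possible because the siFLI1 lists were counted as 1 sample. Other alternatives for the H3K27ac difference gave 3.01 to 6.24 points.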
